A study of Mus musculus with 6 samples.

Results

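Cadherin and protocadherin genes were looked up in lists of genes with a called H3K27me3 peak in mouse granulosa cells. H3K27me3 is the trimethyl mark on lysine 27 of histone H3. Members were the protein-coding genes whose symbols name a cadherin (Cdh), a cadherin-related gene (Cdhr), a protocadherin (Pcdh), a Fat, Dachsous (Dchs) or Celsr gene, a calsyntenin (Clstn), a desmocollin (Dsc) or a desmoglein (Dsg). There were 118 of them among 21900 protein-coding genes of RefSeq in GRCm38.p6, 57 in the clustered protocadherin arrays and 61 outside them. Within these families genes were taken by symbol, not by their calls.

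The granulosa cells, which surround and nourish the oocyte, came from wild type C57BL/6J mice aged 8 to 9 weeks. Cells of several mice were pooled (30 mice per the labels; the methods of the study give a larger number) and plated in 6 dishes. Of the 6 samples, 3 received no agent (control) and 3 received 25 nM dihydrotestosterone (DHT), an androgen that aromatase does not convert to estrogen, for 24 h. Both groups were cultured, and both were precipitated with the antibody to H3K27me3. The deposited values are 1 peak list and a set of gene lists for each group, and they carry no value per sample. Each list was treated as pooled over the 3 samples of a group. For this reason the depth of each sample is unknown, no replicate error stands beside any count below, and no test between control and DHT was possible. In control 16345 peaks were called, 1 in 156.9 kb on average, and after DHT 3975, 1 in 645.1 kb. The number of peaks thus differed between the lists compared below, and its part in the differences between them was not tested. The files hold no expression values, so the labelled cell type could not be checked by expression. Of 10 granulosa cell markers looked up, 3 were in a gene body list: Fshr in both, Cyp19a1 in control alone and Nr5a2 in DHT alone. Of other cell types, 1 of 4 theca markers (Lhcgr), 0 of 3 oocyte markers, 1 of 3 endothelial markers (Pecam1) and 1 of 3 macrophage markers (Ptprc) were listed. Beside them, 14.9% of all protein-coding genes were in either list. The markers are few and were not matched for length, so these counts do not settle the cell type.

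Most cadherins are single-pass membrane proteins that hold neighbouring cells together through repeated extracellular domains bound to calcium. Classical cadherins anchor to actin through catenins, desmosomal cadherins anchor to intermediate filaments, and protocadherins serve mainly in recognition between cells, above all between neurons. In the ovarian follicle, cadherin junctions join granulosa cells to each other and to the oocyte. H3K27me3 is written by EZH2 of the Polycomb complex and is associated with silent genes, and many cadherin genes are switched on only in neural or other specialised tissue.

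A gene was listed by the authors when a peak overlapped its gene body. Of the members, 54 were on the control list, 45.8% (95% Wilson interval 37.0 to 54.7%), where 13.0% of all protein-coding genes were. On the DHT list there were 12 members, 10.2% (95% interval 5.91 to 16.9%), with 4.76% of all protein-coding genes. The intervals cover counting error only and treat genes as independent, which the clustered genes are not. In all, 11 members were in both lists (2.89% of protein-coding genes were), 43 in the control list alone (10.1%) and 1, Cdh9, in the DHT list alone (1.88%). The remaining 63 members were in neither. Of 57 clustered genes, 33 had a control call and 0 a DHT call, and the Wilson interval of the latter reaches 6.31%. Of the 61 others, 21 had a control call and 12 a DHT call. Many clustered genes share exons, and they are therefore described apart.

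**Figure D1:**
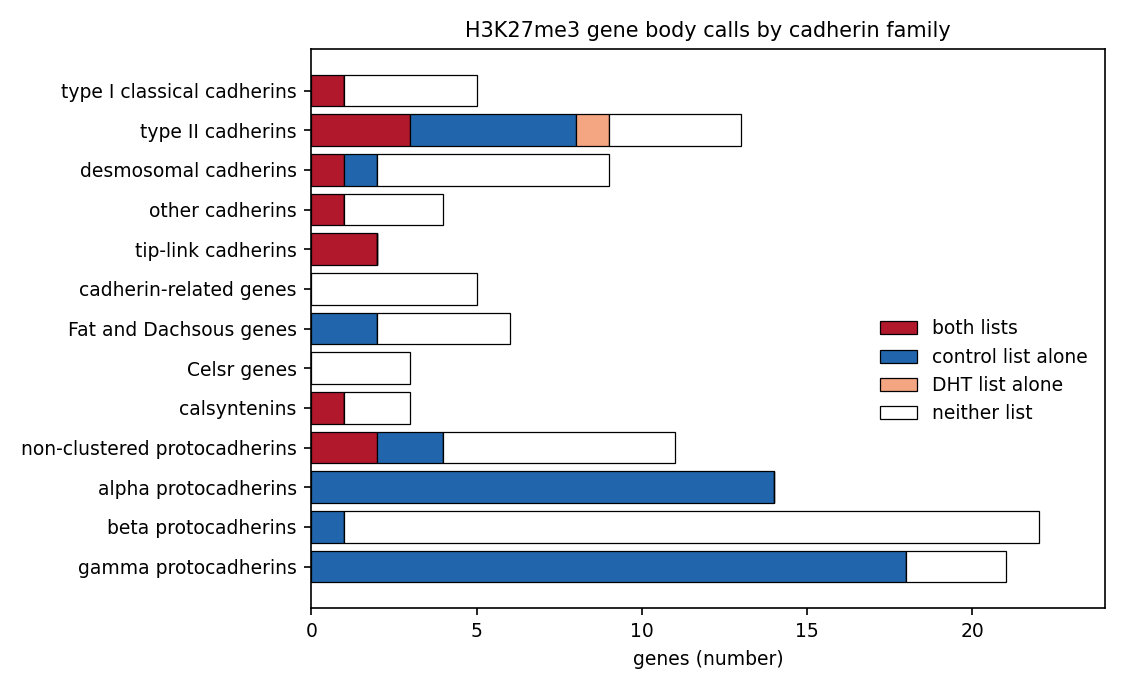
Number of genes of each cadherin family (horizontal axis) in both gene body lists, in the control list alone, in the DHT list alone or in neither. The alpha and gamma protocadherins fill the control list alone with 14 and 18 genes, while the tip-link cadherins and the calsyntenin listed are in both lists.

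The clustered protocadherins lie in 3 neighbouring arrays on chromosome 18. In the alpha and gamma arrays each gene has its own first exon, spliced to constant exons at the shared end of the array, and each neuron expresses its own mix of isoforms. In the control list were all 14 alpha genes (Pcdha1 to Pcdha12, Pcdhac1 and Pcdhac2), 1 of 22 beta genes (Pcdhb18) and 18 of 21 gamma genes. The gamma genes listed were Pcdhga1 to Pcdhga12 and Pcdhgb1, Pcdhgb2, Pcdhgb4, Pcdhgb5, Pcdhgb6 and Pcdhgb7. The deposited control list also held Pcdhgb8, which was not among the protein-coding genes of the annotation used and so is not a member. The gamma genes left out were Pcdhgc3, Pcdhgc4 and Pcdhgc5, the last of the array. None of these 57 genes was in the DHT gene body list.

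These 33 calls are not 33 independent observations. In GRCm38 the 14 alpha gene bodies share a stretch of 43.98 kb at the end of the array, and 1 peak in it would put every alpha gene on the list. The 18 listed gamma genes share 76.3 kb. The first 40.8 kb of that stretch lies before Pcdhgc3, so a single peak there would list all 18 and leave out the 3 unlisted genes, which is the pattern listed. Thus the fewest positions that can give the control gene body calls are 1 in each array. Promoter calls, given below, were not counted here, and those of Pcdha6 and Pcdhb1 would need further positions. The beta genes are single short genes, from 2.34 to 5.27 kb, and do not overlap each other, and 21 of the 22 were not listed. The alpha array spans 258.6 kb and the gamma array 180.1 kb. On chromosome 18 the mean spacing of peaks was 138.8 kb in control and 570.6 kb after DHT, and 629 control and 153 DHT peaks were called, a ratio of 24.3%. In the length class of Pcdha1, the longest alpha gene, 71.3% of genes that are not members had a control call and 32.4% a DHT call. Where in the arrays the peaks lay was not determined, since the peaks are in mm9 and an annotation of that build was not used here.

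**Figure D2:**
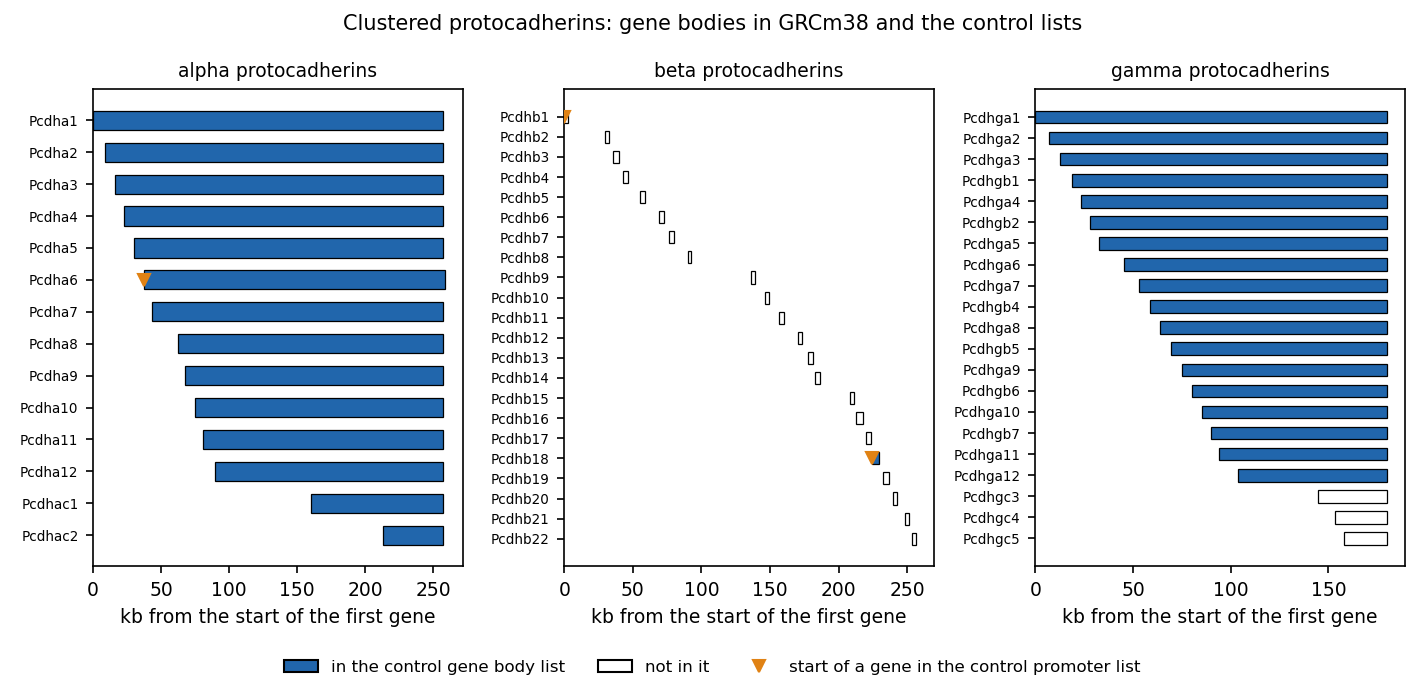
Gene bodies of the alpha, beta and gamma protocadherins in GRCm38, as kb from the start of the first gene of each array; filled bars were in the control gene body list and triangles mark genes in the control promoter list. The listed alpha and gamma genes are nested and end together, and the 3 gamma genes nearest the shared end are not listed.

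The protocadherin arrays also held every member with a promoter peak, defined by the study as within 1 kb of the transcription start. Pcdha6, Pcdhb1 and Pcdhb18 were in the control promoter list, which held 0.612% of all protein-coding genes. In the DHT promoter list, with 0.187% of protein-coding genes, there were 0 members. Pcdhb18 was in the control list for both its promoter and its gene body, and as it is 5.04 kb long a single peak could account for both calls. Pcdhb1 had a promoter call without a gene body call. The start of Pcdha6 lies inside the gene bodies of Pcdha1 to Pcdha5, so a peak there would count for those genes too, but not for Pcdha7 and the genes after it. Of the 61 members outside the arrays, 0 were in a promoter list.

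The classical type II cadherins, which bind through a pair of tryptophans in their first domain and mark nuclei and circuits in the developing brain, had most listed members outside the arrays. Of 13, 8 were in the control list, 61.5% (95% interval 35.5 to 82.3%): Cdh6, Cdh8, Cdh10, Cdh11, Cdh12, Cdh18, Cdh20 and Cdh22. In the DHT list were 4, Cdh9, Cdh10, Cdh12 and Cdh22. Cdh5 (VE-cadherin of endothelium), Cdh7, Cdh19 and Cdh24 were in neither list. The genes are long, with a median of 153.4 kb, and genes of like length that are not members would give 7.01 control calls and 3.22 DHT calls among 13, beside the 8 and 4 observed.

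Of the type II genes, 5 are on chromosome 15, and each was in at least 1 list. In annotation order Cdh6 (147.7 kb, control alone) is followed by Cdh9 (128.6 kb, DHT alone), Cdh10 (197.3 kb, both) and Cdh12 (1149.5 kb, both) with no other protein-coding gene between them, and Cdh18 (928.6 kb, control alone) comes next but one. Cdh9 was the one member that entered the list after DHT. In its length class, 40.9% of genes that are not members had a control call and 17.4% a DHT call. Across chromosome 15, 655 control and 157 DHT peaks were called, a ratio of 23.97%. On chromosome 8 Cdh8 (393.2 kb) and its neighbour Cdh11 (153.4 kb), which is known from bone and mesenchyme, were both in control alone, whereas Cdh5, next in order and 42.9 kb long, was in neither.

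To show what the starts of these genes look like, the promoters of the chromosome 15 genes are printed, from 250 bases before to 50 bases after a RefSeq start in GRCm38.p6. They are shown because their gene bodies were listed while their promoters were not. Cdh22 and Clstn2, which were in both gene body lists, are added as examples rich in CG. Capitals mark each CG dinucleotide, the site of DNA methylation and the feature that defines CpG islands, where Polycomb often binds. The start in the table can be one of several of a gene.
Cdh6 (chr15:13173626-13173925, minus strand): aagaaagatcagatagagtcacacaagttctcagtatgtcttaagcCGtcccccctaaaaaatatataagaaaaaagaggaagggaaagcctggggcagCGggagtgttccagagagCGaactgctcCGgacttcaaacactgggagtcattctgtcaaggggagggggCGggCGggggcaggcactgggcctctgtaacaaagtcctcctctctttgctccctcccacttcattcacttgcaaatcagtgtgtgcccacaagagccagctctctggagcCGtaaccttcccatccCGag
Cdh9 (chr15:16728665-16728964, plus strand): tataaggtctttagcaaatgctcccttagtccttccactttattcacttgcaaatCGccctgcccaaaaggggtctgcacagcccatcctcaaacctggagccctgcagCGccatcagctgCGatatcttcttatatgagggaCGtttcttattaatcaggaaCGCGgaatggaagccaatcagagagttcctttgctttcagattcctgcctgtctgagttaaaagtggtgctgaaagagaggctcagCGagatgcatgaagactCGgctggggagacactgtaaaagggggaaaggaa
Cdh10 (chr15:18820079-18820378, plus strand): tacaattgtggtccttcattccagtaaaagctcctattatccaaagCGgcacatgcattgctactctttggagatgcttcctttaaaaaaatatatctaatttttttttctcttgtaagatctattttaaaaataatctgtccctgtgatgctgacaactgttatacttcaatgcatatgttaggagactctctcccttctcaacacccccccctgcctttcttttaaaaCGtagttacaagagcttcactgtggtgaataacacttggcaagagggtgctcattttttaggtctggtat
Cdh12 (chr15:21111202-21111501, plus strand): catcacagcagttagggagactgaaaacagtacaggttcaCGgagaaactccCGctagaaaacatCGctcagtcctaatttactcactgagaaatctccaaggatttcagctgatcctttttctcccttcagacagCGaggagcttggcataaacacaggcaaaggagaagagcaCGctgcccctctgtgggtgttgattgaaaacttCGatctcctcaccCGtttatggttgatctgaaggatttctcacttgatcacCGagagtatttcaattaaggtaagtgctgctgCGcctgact
Cdh18 (chr15:23036213-23036512, plus strand): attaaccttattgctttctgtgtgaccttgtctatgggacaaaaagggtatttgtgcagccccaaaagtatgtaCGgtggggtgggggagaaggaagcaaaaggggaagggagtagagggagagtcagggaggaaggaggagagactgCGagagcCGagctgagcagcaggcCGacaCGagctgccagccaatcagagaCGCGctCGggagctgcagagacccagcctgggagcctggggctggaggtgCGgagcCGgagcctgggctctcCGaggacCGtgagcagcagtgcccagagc
Cdh22 (chr2:165234688-165234987, minus strand): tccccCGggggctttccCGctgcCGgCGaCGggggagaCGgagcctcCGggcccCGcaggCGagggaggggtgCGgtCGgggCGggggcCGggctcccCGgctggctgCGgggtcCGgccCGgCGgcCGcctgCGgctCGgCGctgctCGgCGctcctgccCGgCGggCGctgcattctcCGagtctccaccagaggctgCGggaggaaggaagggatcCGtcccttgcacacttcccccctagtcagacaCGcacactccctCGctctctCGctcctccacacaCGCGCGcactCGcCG
Clstn2 (chr9:98033118-98033417, minus strand): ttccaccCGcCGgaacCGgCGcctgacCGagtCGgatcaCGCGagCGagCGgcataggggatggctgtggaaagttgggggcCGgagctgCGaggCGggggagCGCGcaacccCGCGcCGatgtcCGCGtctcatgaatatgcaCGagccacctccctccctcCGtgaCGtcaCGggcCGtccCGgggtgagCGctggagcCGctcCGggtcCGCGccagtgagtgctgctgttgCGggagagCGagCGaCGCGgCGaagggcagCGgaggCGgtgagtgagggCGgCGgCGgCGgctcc

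The CG dinucleotides of the 5 promoters of chromosome 15 were counted. There were 2 in Cdh10, 8 in Cdh6, 8 in Cdh9, 9 in Cdh12 and 12 in Cdh18, beside 38 in Cdh22 and 43 in Clstn2, which were picked as rich in CG. Since Cdh22 and Clstn2 were picked, the printed promoters do not show how genes in both lists compare with the rest. Where a gene had several promoters in the table, the one richest in CG was taken, and the median over 26988 genes that are not members was 8, so that of the 5 only Cdh10 lay below it. These 26988 genes were not limited to the protein-coding genes used elsewhere, of which 21782 are not members. Of the 61 members outside the arrays, 37 had a promoter in the table, with a median of 12 and a range from 2 to 48. The 16 of them in a gene body list had a median of 15 and the 21 in neither list a median of 9, and the ranges of 2 to 43 and 2 to 48 overlapped nearly throughout. Of these 16, the 8 in both lists had a median of 10 and the 9 in the DHT list a median of 9. Missing from the table were all 12 members of chromosome 18 outside the arrays, and Cdh1, Cdh3, Cdh4 and Cdh13 among others. The medians therefore do not stand for all 61 members. The half-site of the androgen response element, AGAACA, read on both strands, was present in 6 of the 37 promoters, 16.2%, and in 18.7% of those of the 26988 other genes. These 6 were Cdh23 and Pcdh10, both listed, and Cdh24, Cdhr2, Cdhr5 and Celsr3, which were in neither list. The full element, AGAACA and TGTTCT with 3 bases between them, was found in 0 of the 37 and in 1 of the 26988 other genes. No match says only that these letters are not in this window.

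Among type I classical cadherins, the catenin-bound adhesion molecules of most tissues, 1 of 5 was listed. Cdh4 (R-cadherin, 457.0 kb) was in both lists. Cdh1 (E-cadherin), Cdh2 (N-cadherin), Cdh3 (P-cadherin) and Cdh15 (M-cadherin of muscle) were in neither. Genes of like length would give 2.06 control and 1.02 DHT calls. Cdh2 was the longest of all members outside the lists, at 220.4 kb, and in its length class 71.3% of genes that are not members had a control call. N-cadherin is known as an adhesion molecule of granulosa cells themselves. The next longest unlisted members were Cdh7 (163.0 kb), Celsr1 (135.5 kb), Fat4 (127.3 kb) and Fat1 (119.2 kb), in classes where 61.7%, 52.0%, 40.9% and 40.9% of other genes had a control call. Cdh13 (T-cadherin, 1184.9 kb), which is held to the membrane by a lipid anchor and lacks a cytoplasmic tail, was in both lists, and Cdh16, Cdh17 and Cdh26 were in neither.

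The desmosomal cadherins, which join epithelial cells and cardiac muscle, sit together on chromosome 18. They gave 2 listed genes of 9, 2 with a control and 1 with a DHT call, where genes of like length would give 1.11 and 0.268. Dsc1 (desmocollin 1, 31.3 kb) was in both lists, and Dsg2 (desmoglein 2, 46.5 kb) was in control alone, while Dsc2, Dsc3, Dsg1a, Dsg1b, Dsg1c, Dsg3 and Dsg4 were in neither. Dsc1 was the shortest listed member outside the arrays, followed by Dsg2, Pcdh10 (56.2 kb), Cdh22 (123.4 kb) and Cdh9. Of these 5, Dsc1 and Cdh22 were in both lists. In their length classes 0.690% and 8.37% of genes that are not members were in both. Dsc2 and Dsg1c, the neighbours of Dsc1 on either side, were in neither list.

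Cdh23 and Pcdh15, whose proteins join to form the tip link that opens the transduction channel of hair cells, were both in both lists, at 393.8 and 1553.6 kb. Their length class also holds Cdh4, Cdh12, Cdh13, Clstn2, Pcdh7 and Pcdh9, which were in both lists. The same class holds Cdh8, Cdh18, Fat3 and Pcdh11x, which were in control alone. In it 92.3% of genes that are not members had a control call, 55.6% a DHT call and 53.5% both. Among the non-clustered protocadherins 4 of 11 were listed. Pcdh7 (417.1 kb) and Pcdh9 (879.1 kb) were in both lists, and Pcdh10 and the X-linked Pcdh11x (620.4 kb) were in control alone. Pcdh1, Pcdh8, Pcdh12, Pcdh17, Pcdh18, Pcdh19 and Pcdh20 were in neither. Genes of like length would give 3.80 and 2.02 in the control and DHT lists, beside the 4 and 2 observed. Chromosome X as a whole had 1141 control and 186 DHT peaks, a ratio of 16.3%.

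The Fat and Dachsous genes encode giant cadherins that bind each other across cell borders in planar cell polarity. Fat3 (592.5 kb) and Dchs2 (236.1 kb), 2 of 6, were in the control list, and 0 had a DHT call. Genes of like length would give 2.87 control and 1.32 DHT calls. Fat1, Fat2, Fat4 and Dchs1 were in neither. Celsr1, Celsr2 and Celsr3, the flamingo cadherins of planar cell polarity, were in neither list, nor were the 5 cadherin-related genes Cdhr1 to Cdhr5. Of the calsyntenins, cadherins of the synaptic membrane, Clstn2 (589.0 kb) was in both lists and Clstn1 and Clstn3 (63.8 and 34.0 kb) were in neither.

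**Figure D3:**
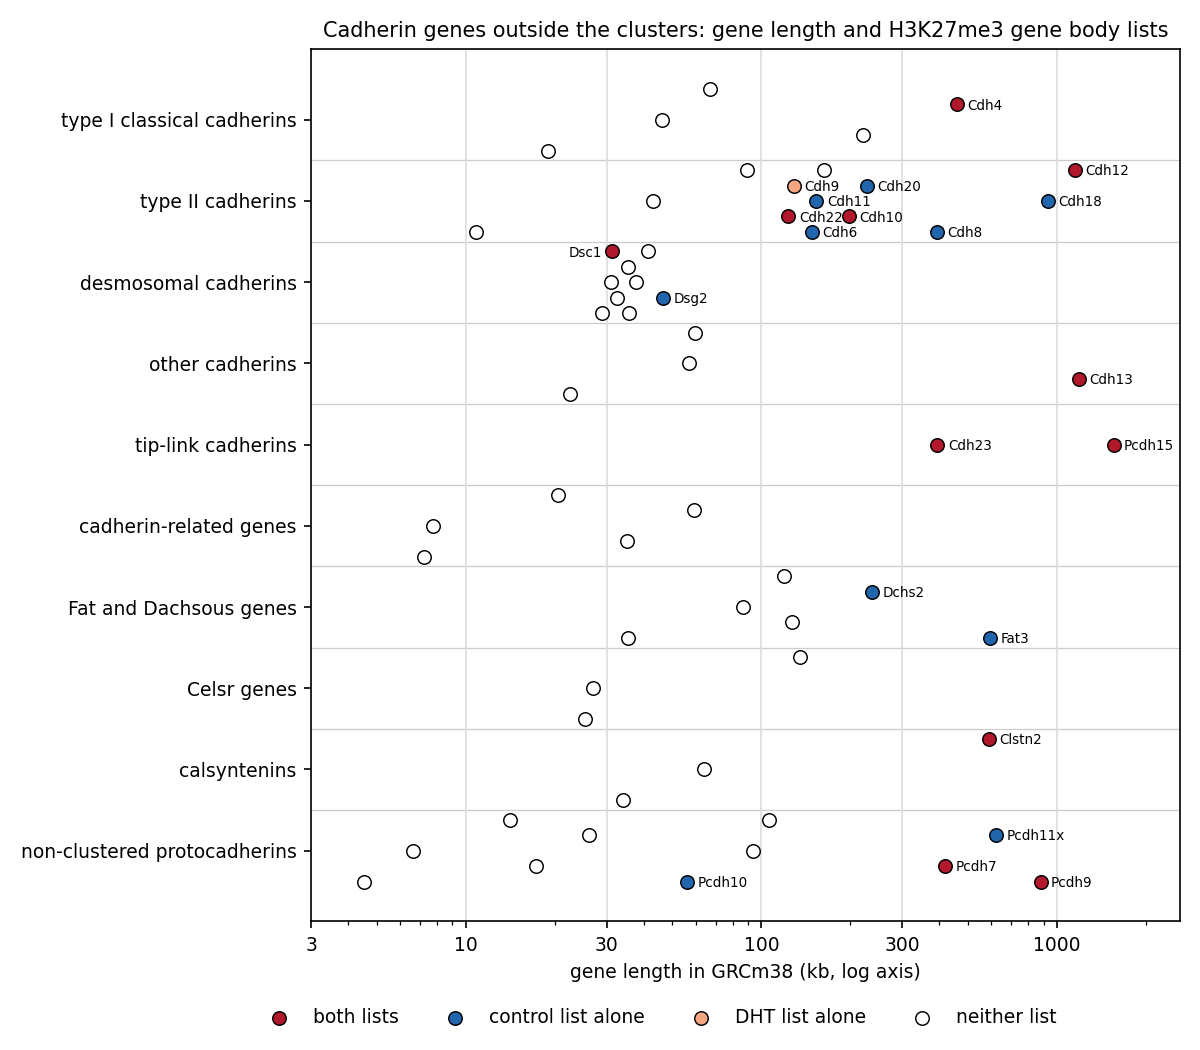
Length of each member outside the arrays in GRCm38 (kb, log axis) by family, with the symbols named for genes in a gene body list and colours for the list. All 12 genes longer than 300 kb are listed, and none of the 14 shorter than 30 kb is.

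Outside the arrays the listed members were mostly the long ones. The 21 members in the control list had a median length of 393.8 kb and the 39 in neither list a median of 35.5 kb. The 11 in both lists had a median of 457.0 kb and the 10 in control alone 231.6 kb, with overlapping ranges (31.3 to 1553.6 kb, and 46.5 to 928.6 kb). All 12 members longer than 300 kb were in the control list, 100% (95% interval 75.8 to 100%), and so were 88.6% (85.7 to 91.02%) of the 545 other protein-coding genes of that size. In the DHT list the shares were 8 of 12, 66.7% (39.1 to 86.2%), and 52.1% (47.9 to 56.3%). The 4 of these genes that were in control alone were Cdh18, Pcdh11x, Fat3 and Cdh8. From 100 to 300 kb, 6 of 13 members (46.2%) and 52.3% of other genes were in the control list, and 3 of 13 (23.1%) and 19.8% in the DHT list. From 30 to 100 kb the control shares were 3 of 22 (13.6%) and 19.1%, and the DHT shares 1 of 22 (4.55%) and 5.27%. Up to 30 kb, 0 of 14 members were listed, beside 2.74% of other genes in control and 0.815% after DHT. In each of the 4 classes of length and in both lists the interval for the other genes overlapped that for the members.

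**Figure D4:**
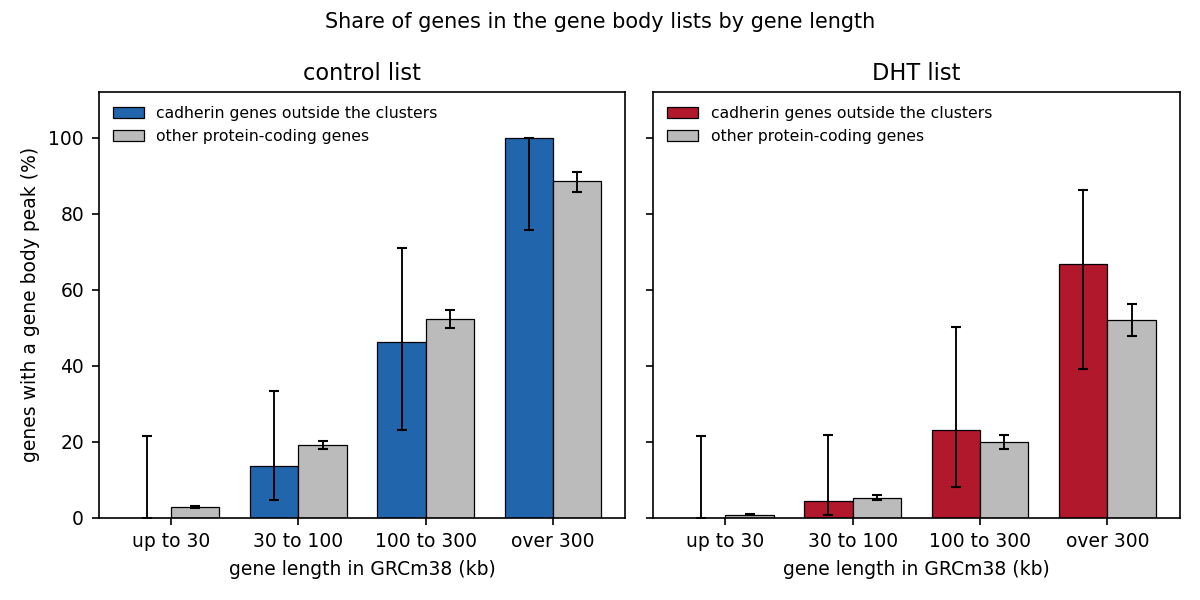
Share of genes with a gene body peak (%) by gene length in GRCm38 for members outside the arrays and for other protein-coding genes, in the control list (left) and the DHT list (right); error bars are 95% Wilson intervals. In control the shares climb from 0 and 2.74% up to 30 kb to 100 and 88.6% over 300 kb, and the intervals overlap in every class.

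When the other genes were sorted into 50 classes of length, their listed shares would give 22.5 control calls and 10.7 DHT calls among the 61 members. The observed counts were 21 and 12, ratios of 0.935 (95% interval by counting error 0.645 to 1.28) and 1.12 (0.664 to 1.79). With the arrays included the ratios were 1.37 (1.11 to 1.64) in control and 0.705 (0.410 to 1.17) after DHT, the latter interval including 1. In the arrays alone the 33 and 0 calls stood beside 16.9 and 6.35, and these nested genes are not independent counts. The share of control calls that were also DHT calls was 11 of 21 outside the arrays, 52.4% (95% interval 32.4 to 71.7%), 0 of 33 in the arrays, and 22.2% over all protein-coding genes. Among genes over 100 kb, 10 of 18 members (55.6%, 33.7 to 75.4%) and 34.1% of other genes (31.7 to 36.6%) with a control call had a DHT call as well. Most of these members are longer still, and over 300 kb the shares were 8 of 12 (66.7%, 39.1 to 86.2%) and 54.7% (50.2 to 59.04%), with overlapping intervals. Whether members and other genes differ was not tested. Length can also be set against the mean spacing of peaks on a gene's own chromosome. Of 17 members longer than the control spacing 15 had a control call, where 74.1% of such other genes did, and of 44 shorter members 6 did, where 8.99% of others did. After DHT, 4 of the 5 members longer than the spacing had a call (69.1% of others) and 8 of the 56 shorter ones (4.37% of others). Lengths were not matched among the shorter or the longer genes. Members outside the arrays had a median length of 59.7 kb, and protein-coding genes that are not members 17.1 kb.

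Neighbouring genes were also looked up. The protein-coding genes next to the 22 listed members outside the arrays numbered 44, counting a gene once for each side, and 15 of them (34.1%) were in either list. However, 8 of these 15 are members themselves. Without neighbours that are members the count was 7 of 31 (22.6%, 95% interval 11.4 to 39.8%). Next to the 39 unlisted members 16 of 78 (20.5%) were listed, and 11 of 57 (19.3%, 11.1 to 31.3%) without members. Of all protein-coding genes 14.9% were in either list. Lengths of neighbours were not matched here. Pcdh15, Cdh13, Cdh4, Pcdh9, Cdh22 and Dsc1 were in both lists while neither neighbour was in any.

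The authors also listed genes whose expression changed with DHT and that had a gene body peak or a linked enhancer with the mark. These lists held 0.507% of protein-coding genes and 0 members. The other genes of the junctions and pathways were looked up from a set of 52 partners. Of these, 17 (32.7%) had a control call, 9 (17.3%) a DHT call and 5 both, beside 13.0%, 4.76% and 2.89% of all protein-coding genes. Many partners are long, and genes of like length would give 13.7 control and 5.45 DHT calls, ratios of 1.24 (95% interval 0.816 to 1.75) and 1.65 (0.896 to 2.84), with both intervals including 1. Among catenins and junction adaptors, Ctnna3 (alpha-T-catenin, 1573.6 kb) and Ctnnd2 (delta-catenin, 856.8 kb) were in both, Ctnna2 (alpha-N-catenin, 1098.2 kb) and Vcl (vinculin) were in control alone, and Ctnna1 (alpha-E-catenin) was in DHT alone. Ctnnb1 (beta-catenin), Ctnnd1, Jup, Arvcf and Afdn were in neither. Of the desmosome plaque, Dsp (desmoplakin, 47.3 kb) was in both lists, like Dsc1, and Pkp4 and Ppl (periplakin) were in control alone. Nectin3, a junction protein of the immunoglobulin family, and the scaffold protein gene Dlg5 were in both as well.

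Tmc1 and Tmc2, channel subunits pulled by the tip link, and Ush1c (harmonin), which binds Cdh23, were in control alone. In planar polarity Vangl1 was in control alone, and Prickle1 and Prickle2 were in DHT alone. Adam10, the protease that sheds cadherin ectodomains, and Cyfip1 of the actin-regulating WAVE complex were in control alone. Furin, which cuts the propeptide from classical cadherins, was in the DHT lists for both gene body and promoter and in neither control list. Of the regulators of the protocadherin arrays, Smchd1, a chromatin repressor of these arrays, and Rad21 of cohesin were in control alone, and Ctcf, Wiz and Setdb1 were in neither.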

How the data were processed

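Per the methods and the submitters' processing notes, the authors aligned reads to mm9 using Bowtie2 (2.3.4), used reads with a unique position, removed PCR duplicates, and called broad peaks using MACS2 (2.1.1) with q-values up to 0.05. The peak names carry the caller's automatic setting for duplicates. Promoters reached 1 kb to either side of the start. How the 3 samples of a group were combined, the annotation behind the gene lists and the use of an input library were not given in the sources used here. For each peak the deposited files give a score, a fold enrichment (a ratio), a −log10 p-value and a −log10 q-value. Only the numbers and positions of peaks and their median fold enrichment were used here. The deposited gene lists hold symbols without values. Older symbols were mapped to current RefSeq names in GRCm38.p6, which also gave gene lengths, gene order and promoters; 3135 of 3144 control and 1142 of 1146 DHT gene body symbols matched. No coordinate was compared across builds. Samples were grouped by the labelled agent.

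Shares carry 95% Wilson intervals. Counts for genes of like length used the listed share of other protein-coding genes in 50 classes of 438 genes each. The procedure was checked on simulated lists in which genes were drawn independently by length. It was not checked for nested genes called together, and the intervals were not checked. Intervals of the ratios are Wilson bounds of the observed share. No significance test was run, and members, families and partner lists were chosen with earlier results of these data known. Genes named were all listed members and partners, named unlisted groups, the 5 longest unlisted and the 5 shortest listed members outside the arrays; further unlisted genes were named to complete their families. Python 3.11.15, numpy 2.4.6, pandas 2.3.3, scipy 1.17.1 and matplotlib 3.10.9 were used.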

Additional observations from a re-analysis of the deposited data

How the results depend on the processing

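No paired analysis was possible because each group has a single pooled list without values per sample. For the same reason leaving out each replicate was not run, and gene lists at a stricter q-value were not run because they need an annotation of the build of the peaks. Of 39 alternatives over 8 results, 29 stayed within the 95% interval of the reported value, among them other length classes, exact symbols and autosomes alone, and 2 of the 29 are DHT ratios that crossed 1. The 10 outside it concern the clustered protocadherins. Without them 34.4% of members were in the control list, 19.7% in the DHT list, 18.0% in both, 16.4% in control alone and 0 in a promoter list. With each array as 1 locus the shares were 18.8% in the DHT list, 17.2% in both and 20.3% in control alone. The ratio to genes of like length crossed 1 in both lists, from 1.37 to 0.935 (without arrays) and 0.981 (1 locus each) in control, and from 0.705 to 1.12 and 1.04 after DHT. Unknown depth limits the comparison of lists.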
